A study of Sus scrofa with 6 samples.

Results

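The left atria of the 2 pigs that were given valsartan (group MRV) were set against the left atria of the 4 pigs that were not, which pool the groups NC and MR. These 2 and 4 samples, taken by the group in their titles, make up all 6 samples of the series. Every animal was a male Lanyu miniature pig, 18 months old. NC animals were unoperated as far as recorded and served as normal controls. MR animals had mitral regurgitation, made by cutting a hole of 2.8 mm into the posterior leaflet of the valve, and their atria were taken 12 months after that surgery. MRV animals carried the same lesion and took valsartan at 3.43 mg/kg/day, starting 1 week before surgery. Valsartan was given to lesioned animals only, so the drug group differs from NC in the lesion as well, and the 4 atria without valsartan mix lesioned with unlesioned hearts. One Affymetrix porcine array was hybridised per atrium.

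Valsartan blocks the type I angiotensin II receptor. In the heart and its vessels this receptor couples to Gq proteins and calcium release, and its activation constricts vessels, promotes aldosterone release and drives growth of muscle cells and deposition of matrix. In an atrium loaded by regurgitation, stretch itself induces natriuretic peptides and structural genes of the Z-disc, the plate that anchors the actin filaments. The comparison asks which transcripts lie, in both drug-treated atria, outside the levels seen with or without the lesion when no drug was given.

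The array carried 24123 probe sets, of which 124 controls were set aside, and 23999 remained. Array medians lay between 90.2 and 93.4 units of deposited intensity, and the arrays correlated with each other at 0.954 to 0.983 (Pearson's r of log2 values across probe sets, which are not independent). NC1 had the lowest correlations, at most 0.975, NC2 correlated with MRV2 at 0.983, and the MRV arrays correlated with each other at 0.981. The 3 actin control probe sets were lower in both MRV arrays, with the 3' one at 7859 and 10976.5 against 13135 to 15543 on the other arrays. Actin signal at the 3' end over that at the 5' end, a ratio that is higher in degraded RNA, was 2.30 and 1.87 in MRV and 1.44 to 1.91 elsewhere, and that of GAPDH was 1.17 to 1.34 throughout. The 28S ribosomal RNA control read 117 and 468 (NC), 187 and 280 (MR) and 341 and 559 (MRV). The 11 tested markers of working cardiomyocytes had a median log2 difference of 0.002, with TPM1, ACTN2, DES and RYR2 below the levels of all 4 other atria (36.4%, against 13.6% of all genes) and TNNI3 above them. Their summed intensities were 133818 and 136581 in MRV and 134370 to 141266 in the other atria. The atrial list, which includes NPPA and GJA5, summed to 61458 and 61796 against 57417 to 63048.

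No probe set passed the threshold. Of 14400 probe sets bright enough to test, 0 (0%) had a limma adjusted p under 0.05 between MRV and the pooled atria, and the smallest adjusted p was 0.346. At an unadjusted p under 0.05, 1134 probe sets (7.88%) differed, 391 higher and 743 lower in MRV. What follows describes levels, and no difference named is a called one. A range given after "against" is that of the 4 atria without valsartan. Both MRV arrays lay outside the range of the other 4 for 2656 tested probe sets (18.4%), above it for 1105 (7.67%) and below it for 1551 (10.8%). Over all 23999 probe sets this held for 3877 (16.2%), 1863 above (7.76%) and 2014 below (8.39%). With 1 probe set per gene, the one with the highest mean, 322 of 5408 genes lay above (5.95%) and 735 below (13.6%). A difference of at least 2-fold was added to that separation for 69 probe sets (0.479%), 28 of them higher (0.194%) and 41 lower (0.285%). With 1 array left out, separation asks for fewer arrays to agree. The 2-fold count was 72 without NC1, 69 without MR1 and 72 without MR2, near the 69 with all arrays. It was 157 without NC2, 140 without MRV1 and 155 without MRV2, and the share outside the range was 32%, 42.3% and 42.8% in those last cases.

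Lower values outnumbered higher ones among separated probe sets, 58.4% of 2656, and this split was 52.4% lower after quantile normalization and 56.1% after centring each array on its median. It differed between probe sets with a gene symbol (883 lower, 473 higher) and those without one (652 lower, 619 higher). Of the genes outside the range by a log2 difference of 0.5 or more, 96 were lower and 22 higher in MRV. Among the 96, the MR mean lay above the NC mean for 53, close to the 52.6% of all 5408 genes for which it did.

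The leading genes lower in MRV have varied roles, and those linked to the cell skeleton are given first. CNN1, which encodes calponin, an actin-binding protein of smooth muscle, read 976 and 892 (NC), 902 and 805.5 (MR) and 489.5 and 527 (MRV). Both MRV arrays were well below the lowest of the other 4, and the difference was -0.79 ± 0.10 on the log2 scale (moderated SE; limma adjusted p = 0.346). FHL1, a LIM-domain protein of the sarcomere that takes part in stretch sensing, read 9944 and 12171 (NC), 13581 and 13183 (MR) and 6865.5 and 7073 (MRV). Both MRV arrays were alike and every other array was at least 9944, and the difference was -0.80 ± 0.14 on the log2 scale (moderated SE; limma adjusted p = 0.387). MAP1A, a microtubule-associated protein gene, read 732 and 611 (NC), 789 and 766 (MR) and 390.0 and 324 (MRV) on its brightest probe set, while another probe set of the gene differed by 0.045 on the log2 scale. The actin control probe sets listed above were also lower in MRV, and their part in the result was not tested.

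F3 encodes tissue factor, the receptor that starts blood coagulation. It read 578 and 723 (NC), 1099 and 882 (MR) and 189 and 284 (MRV). The MRV atria were below every other atrium, and MR lay above NC, so the log2 difference was -1.42 from NC and -2.01 from MR (limma adjusted p = 0.353 against the pooled atria). SERPINB2, plasminogen activator inhibitor 2, read 1095 and 1395 (NC), 1611 and 1465 (MR) and 753 and 768 (MRV), with the same order of groups. SPP1, which encodes osteopontin, a matrix protein that attracts macrophages, read 199.7 and 112.5 (NC), 248 and 138 (MR) and 32.2 and 63.0 (MRV). The drug-treated atria were near the dim end of the array for this gene, where the log2 difference of -1.57 depends on the constant of 16 added before taking logs.

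SELENOW, a small selenoprotein of muscle, read 1744 and 1684 (NC), 2149.7 and 1718.5 (MR) and 972 and 999.9 (MRV). GLRX, glutaredoxin, which reduces protein disulfides with glutathione, read 269.8 and 232 (NC), 248 and 253 (MR) and 128 and 160.4 (MRV). For GLRX the 4 atria without valsartan were close together, and for SELENOW MR1 stood above the other 3. The log2 differences were -0.87 (SE 0.12) and -0.74 (SE 0.11). STBD1, which tethers glycogen to membranes, read 297 and 381 in MRV against 583 to 646. Another probe set of STBD1 differed by -0.489 and another of GLRX by -0.333, the same direction in each case.

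Regulators of transcription were also among the lower genes. CITED1, a transcriptional co-regulator, read 394 and 476 (NC), 495 and 549.5 (MR) and 133 and 244.5 (MRV). MEIS1, a homeobox factor, read 445 and 309 (NC), 402.5 and 493 (MR) and 219 and 116.5 (MRV), and its other probe set differed by -0.539. The remaining lower genes of the leading 16 were IER3, an early response gene (106 and 135 in MRV against 205 to 293), MLLT11 (2844 and 2451 in MRV against 3855 to 4399), and STC1, the hormone stanniocalcin (126 and 116 in MRV against 229.8 to 373). The set ends with CYB5R1, a cytochrome b5 reductase (567 and 668 in MRV against 837.5 to 938), and ENDOG, a mitochondrial endonuclease (256 and 307.5 in MRV against 400.1 to 462). Their log2 differences lay between -0.53 for CYB5R1 and -1.035 for STC1.

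The genes higher in MRV were fewer and mostly dimmer. KIAA1671 had the smallest p and read 688 and 780.5 (MRV), 175.5 and 257 (NC) and 231 and 171 (MR). Both drug-treated atria were more than 2-fold above the highest other atrium, and the difference was 1.76 ± 0.18 on the log2 scale (moderated SE; limma adjusted p = 0.346). RUBCNL, a regulator of autophagosome maturation, read 211 and 205 (MRV), 89.9 and 73.4 (NC) and 87.3 and 113 (MR), a log2 difference of 1.08. SCARB2, a membrane protein of the lysosome, read 573.5 and 539 (MRV), 341.5 and 381 (NC) and 301 and 349.7 (MR), with 0.675 on the log2 scale and 0.247 for its other probe set. These 3 genes were level across NC and MR and higher in both MRV arrays.

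BCAT1, the cytosolic enzyme that starts the breakdown of branched-chain amino acids, read 387 and 299 (MRV), 187 and 112 (NC) and 137 and 62.9 (MR). Its other probe set differed by 0.769, also higher. PRRX1, a homeobox factor of mesenchymal cells, read 213 and 298 (MRV), 86.6 and 179.5 (NC) and 129 and 118 (MR). PDE3A, the phosphodiesterase that degrades cyclic AMP in heart muscle and vessels, read 327 and 447 (MRV), 205 and 306 (NC) and 216 and 251 (MR). For PRRX1 and PDE3A the array NC2 came closest to the drug-treated atria.

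LOC100523870 had the widest difference among the higher genes, 1.94, and it rested on 1 array, with 1128 and 224 (MRV), 55.1 and 174 (NC) and 165 and 126 (MR). CAMK1D, a calmodulin-dependent kinase, read 552 and 366 (MRV), 332 and 261 (NC) and 175 and 106 (MR), lower in MR than in NC. Its log2 difference was 0.59 from NC and 1.61 from MR. NRSN1, a gene of neurons, read 369 and 357 (MRV), 175.5 and 263 (NC) and 208 and 83.9 (MR). The other leading higher genes were NCBP2 of the cap-binding complex (251.5 and 301 in MRV against 141.5 to 211), MTURN (369 and 257.5 in MRV against 157 to 255.5), FBXO22, a ubiquitin ligase subunit (288 and 317.5 in MRV against 153 to 267), and the tetraspanin gene TSPAN9 (96.1 and 100 in MRV against 46.5 to 88.5).

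Some genes cleared the range by little, as MTURN above did. HILPDA, whose protein coats lipid droplets, read 106 and 122.5 in MRV against 59.0 to 104, RERG, a Ras-like growth inhibitor, 1544 and 1622 in MRV against 785 to 1381, and CCL2, the chemokine that draws monocytes, 289 and 361 in MRV against 143 to 285. UCHL1, a deubiquitinase of neurons and stressed muscle, just missed separation, with MRV2 inside the range, at 633 and 1186 in MRV against 1122 to 2384. The gap between MRV and the nearest other array for CCL2 was far smaller than the distance between the NC arrays themselves.

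**Figure D1:**
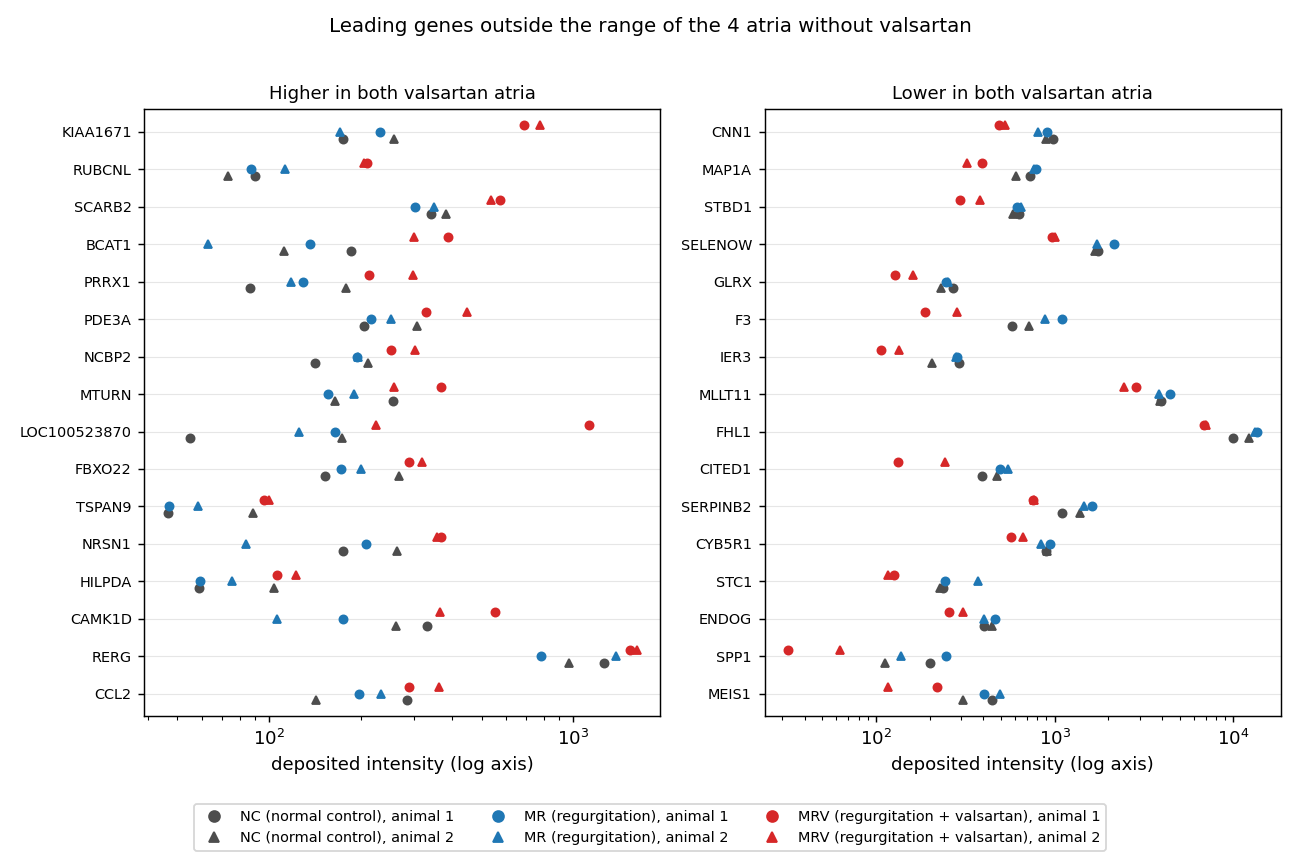
Deposited intensity (log axis) of the 16 higher and 16 lower leading genes in each of the 6 atria, ordered by p from the top, with colours for NC, MR and MRV and a shape for each animal. Red MRV points lie beyond all other points in each row by construction, as for KIAA1671 at 688 and 780.5 against 171 to 257. The gap is narrow for MTURN, CCL2 and HILPDA.

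Each of 22 gene lists was described by its tested genes, counting those outside the range of the 4 atria and taking the median log2 difference, beside 5.95% above the range, 13.6% below it and a median of -0.029 for all 5408 genes, 57.4% of which read lower in MRV by any amount. No member of any list passed the limma threshold. The lists with the lowest medians were hypertrophy and stretch (-0.254), immediate early genes (-0.183) and collagens and fibrous matrix (-0.15). The clock and cell cycle lists had the highest medians, 0.099 over 6 genes and 0.092 over 12.

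**Figure D2:**
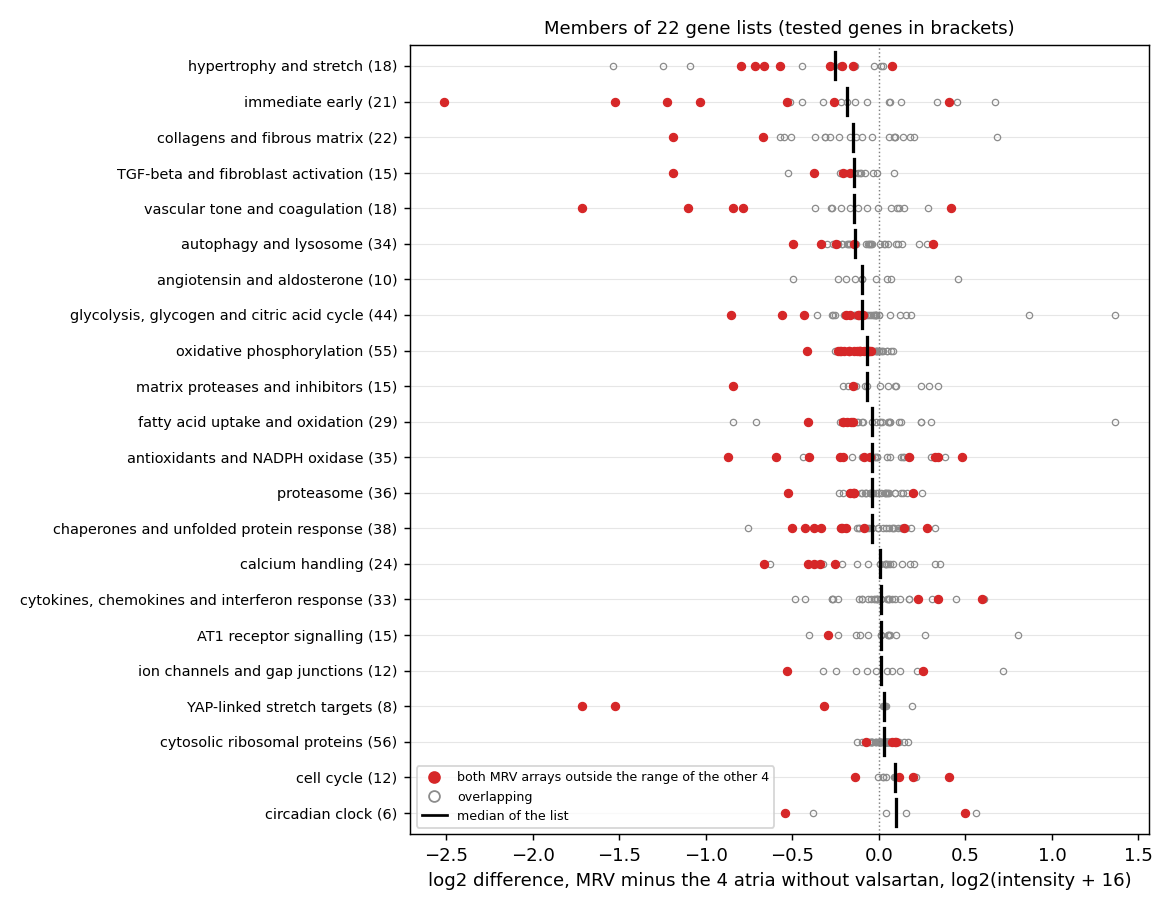
Log2 difference between MRV and the 4 atria without valsartan for each tested gene of the 22 lists (number tested in brackets), with genes outside the range in both MRV arrays filled in red and the list median as a black bar. Medians lie between -0.254 and 0.099, and the red points of the respiratory chain and ribosomal lists sit close to 0 while those of the immediate early list reach -2.51.

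The receptor that valsartan blocks was within the range of the other atria, and for no gene of the hormone system around it were both MRV arrays outside that range on the same side. Of 22 named genes of the angiotensin and aldosterone list 10 were tested, 7 lower and 3 higher, and 0 were separated in either direction (median -0.098). AGTR1, the type I receptor, read 599 and 588 (NC), 352 and 518 (MR) and 469 and 414 (MRV). MRV was below NC and inside the spread of MR, with log2 differences of -0.42 and 0.043. AGT, angiotensinogen, the precursor of angiotensin II, read 4209 and 1803 (NC), 1887 and 1097 (MR) and 2433.5 and 3085 (MRV). ACE, the enzyme that makes angiotensin II, read 117 and 122 in MRV against 111 to 132, an interval in which no order of the groups can be read.

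Of the remaining members of that list, SGK1, a kinase induced by aldosterone, read 1101 and 624 (NC), 502 and 686 (MR) and 645 and 371 (MRV), and the peptidases CTSD and PREP read 490.4 and 626 in MRV against 533 to 746 and 677 and 621 in MRV against 661 to 783. ENPEP, which cleaves angiotensin II, read 381 in NC1 and 110 to 150 on all other arrays. AGTR2, MAS1 and NR3C2 had no probe set with that single symbol and were not analysed here. In the signalling list below the receptor, 15 of 37 genes were tested and 1, MAPK14, lay outside the range, below it (6.67%, median 0.013). MAPK14, the stress kinase p38 alpha, read 246 and 238 in MRV against 283 to 335, a log2 difference of -0.30, and its other probe set differed by -0.236. RGS2 and RGS4, which shut off Gq and Gi signals, read 242 and 345 and 123 and 124 in MRV, within the range of the other atria. RGS5, of the same family, read 1025 and 1390.1 in MRV against 1069 to 1312, 1 MRV array on either side of that range. JAK2 read 178 and 284.5 in MRV against 161 to 209 and RAC1 636 and 679.6 in MRV against 679 to 747, with 1 MRV array inside the range in each case.

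Hypertrophy and stretch genes held the lowest median of the 22 gene lists. By array, their median deviation from the mean of the 4 atria without valsartan was -0.315 and -0.31 in MRV. It was -0.288 and -0.037 in NC and 0.138 and 0.14 in MR, so NC1 lay close to MRV. Of 18 tested, 15 were lower in MRV, and 7 lay below the range (38.9%, against 13.6% of all genes) and 1 above it. Those below were FHL1, MYOT, RCAN1, XIRP1, LMCD1, CRYAB and DES, most of them proteins of the Z-disc or its filaments. The count below the range was 7 after quantile normalization and after median centring as well, and 11 without NC1 or without MRV2, when 16.3% and 26.4% of all genes lay below, while the median lay between -0.428 without NC1 and -0.21 without MR2. MYOT, myotilin, which binds actin at the Z-disc, read 2300.3 and 2933 (NC), 2856.5 and 3250.5 (MR) and 1848 and 1572 (MRV). XIRP1, an actin-binding repeat protein of intercalated discs, read 1782 and 1915 (NC), 1428 and 1557 (MR) and 1090.3 and 1132 (MRV). MYOT was highest in MR and XIRP1 in NC, and both were lowest in MRV.

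RCAN1, an inhibitor of calcineurin that calcium signalling induces, read 674 and 669 (NC), 941 and 1335 (MR) and 521 and 565 (MRV). Here MRV lay a little below NC, with MR above, and the log2 difference was -0.30 from NC and -1.03 from MR. The natriuretic peptide genes behaved differently from each other. NPPB, the B-type peptide of stretched muscle, read 4509.6 and 4095 (NC), 8081 and 8253 (MR) and 4076 and 4644 (MRV). MRV matched NC and was below both MR arrays, so this gene was not outside the pooled range. NPPA, the atrial peptide, read 18414 and 18864 (NC), 19049 and 19832.5 (MR) and 20169.7 and 20039 (MRV), above the range by a log2 difference of 0.079, but not outside it after quantile normalization.

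The lesion-linked muscle isoforms overlapped between MRV and the pooled atria. MYL2, the ventricular light chain, read 203 and 325 (NC), 10693 and 2318 (MR) and 151.5 and 954 (MRV), so its log2 difference of -1.54 carries an SE of 1.62. TNNT1, slow troponin T, read 497 and 996 (NC), 2421 and 2724 (MR) and 323 and 957 (MRV). Both genes were high in MR and spread widely in MRV, with MRV1 the lowest of the 6 arrays and MRV2 near the upper NC array or above it. ANKRD1, a stretch-induced nuclear cofactor, read 9863 and 14562 (NC), 15802 and 15241 (MR) and 13884 and 13841 (MRV), and NEBL, nebulette of the Z-disc, 229 and 264 (NC), 449.7 and 481 (MR) and 354.5 and 331 (MRV). NEBL in MRV lay between NC and MR, and ANKRD1 within the spread of NC.

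**Figure D3:**
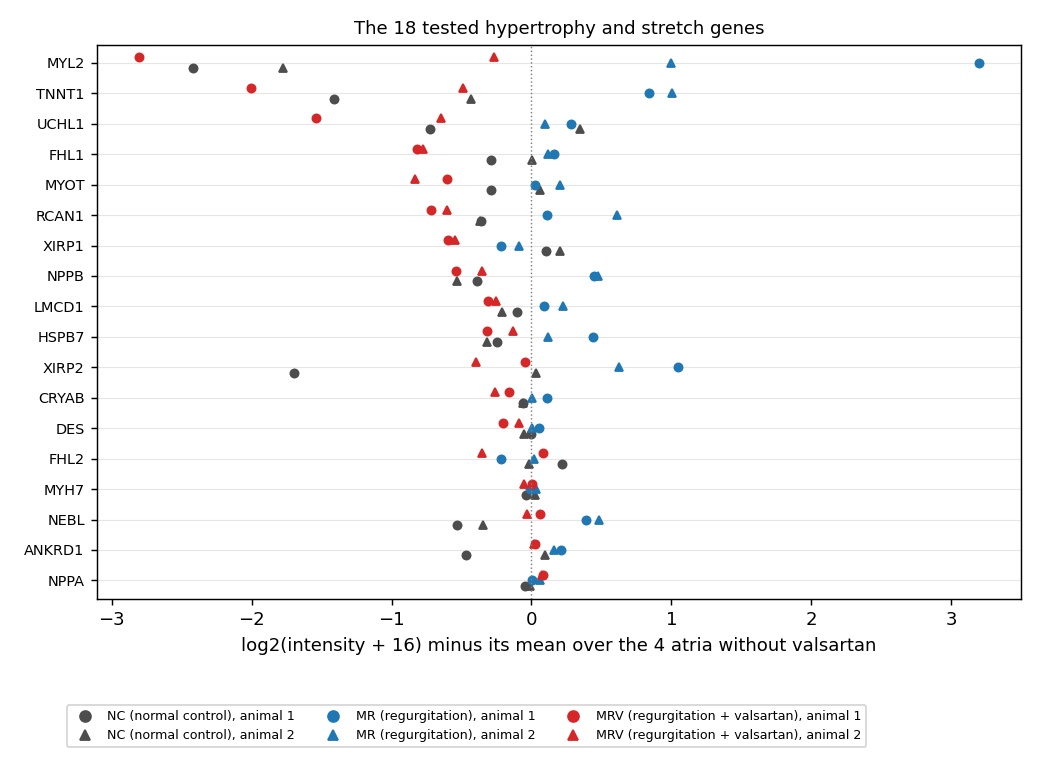
Log2(intensity + 16) of the 18 tested hypertrophy and stretch genes in each atrium, minus the mean of the 4 atria without valsartan, ordered by the MRV difference from the lowest at the top. Both MRV points lie left of all others for 7 genes including FHL1, MYOT and XIRP1, and MYL2 spans the widest range, with MR1 at 10693 and MRV1 at 151.5 intensity units.

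Immediate early genes, which respond within minutes to stretch or hormones, had 21 tested members. In MRV 6 lay below the range (28.6%) and 1 above it, NR4A2. ATF3, a stress-induced repressor, had the lowest log2 difference of the list at -2.51 (SE 0.53, limma adjusted p = 0.504) and read 1099.5 and 409 (NC), 265 and 357 (MR) and 89.1 and 49.0 (MRV). CYR61, a secreted matrix protein that is also a target of the stretch-sensitive factor YAP, read 864 and 285 (NC), 435 and 269 (MR) and 154 and 115.5 (MRV). NC1 was the highest array for both genes, and without it the log2 differences were -2.10 and -1.18.

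IER5 read 324 and 253 in MRV against 444 to 1316, and MYC and GADD45B, regulators of growth and stress signalling, read 120.5 and 85.1 in MRV against 133 to 185 and 208 and 255 in MRV against 257 to 325. The classical members FOS and EGR1 were not separated, at 683 and 694 (NC), 160.5 and 574.5 (MR) and 585 and 263 (MRV) for FOS and 517 and 482 in MRV against 407 to 804 for EGR1. KLF10 and JUN read higher in MRV on average, with 501 and 816 and 377.5 and 1358, overlapping the others. The list median of -0.183 was -0.045 without NC1 and -0.298 without MR1, so it leaned on which untreated arrays were kept. Below the range were 5 genes after quantile normalization, when 11.3% of all genes were, and between 6 and 9 with any 1 array left out. Without MRV2 the 6 of 21 stood beside 26.4% of all genes and without NC2 the 6 of 21 beside 22.9%, so the list was near the background there.

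The list of YAP-linked stretch targets had 8 tested genes, of which F3, CYR61 and DLC1 lay below the range (37.5%) and 0 above. Its median was 0.028, because the other 5 members read slightly higher in MRV, and the median was -0.111 to -0.036 without any 1 array except NC2. DLC1 read 545.5 and 594 in MRV against 631.5 to 810.4, and CRIM1 154 and 495 (NC), 369 and 239 (MR) and 266 and 409.9 (MRV). F3 and CYR61 thus moved apart from the rest of their list.

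Vascular tone and coagulation genes had 4 of 18 below the range (22.2%), 1 above (5.56%) and a median of -0.142. Beside F3 and SERPINB2 these were DDAH1 and PROCR. DDAH1, which removes a natural blocker of nitric oxide synthesis, read 147 and 226 (NC), 299 and 259 (MR) and 97.5 and 96.2 (MRV). Its MRV values were close together and below every other array, and the difference was -0.82 from NC and -1.38 from MR. PROCR, the endothelial receptor for protein C, an anticoagulant, read 2398 and 1184 (NC), 1100.1 and 1137 (MR) and 732.5 and 855 (MRV), with NC1 far above the rest. F2R, the thrombin receptor, was the 1 gene above the range, at 641 and 1039.8 in MRV against 592 to 635. EDN1, endothelin, which angiotensin II is known to induce, read 91.5 and 78.7 (NC), 138 and 121 (MR) and 71.3 and 99.6 (MRV), so that MRV overlapped NC and lay below MR.

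TGF-beta and fibroblast activation genes were lower in MRV for 14 of 15 members, by small amounts (median -0.146), with 4 below the range (26.7%) and 0 above. POSTN, periostin, a matrix protein of activated fibroblasts and valves, read 1932 and 2258.5 (NC), 1676 and 1409.6 (MR) and 462 and 1300.5 (MRV). Both MRV arrays were the lowest, though far apart from each other (log2 difference -1.19, SE 0.39). TAGLN, transgelin of smooth muscle and myofibroblasts, read 663 and 770.5 in MRV against 833 to 991, ID3, a target of BMP signals, 969 and 953 in MRV against 1044 to 1223, and INHBA, an activin subunit, 213 and 217 in MRV against 221 to 273.5. TGFB1, the main ligand, read 178 and 182 in MRV against 149 to 191, within the range. After quantile normalization or median centring 3 of the 15 lay below the range in place of 4, beside 11.3% and 12.6% of all genes.

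Collagens and fibrous matrix genes were mostly inside the range. Of 22 tested, 2 lay below it, POSTN and THBS2 (9.09%, under the share of all genes), 0 above it, and the median was -0.15. THBS2, thrombospondin 2, read 351 and 377.5 in MRV against 405.5 to 773, and THBS1, which activates latent TGF-beta, 823 and 746 (NC), 395.5 and 570.5 (MR) and 353 and 468 (MRV). COL1A2, a chain of type I collagen, read 197 and 247 in MRV against 189 to 230.4, with no order between groups. COL5A1 read 1444.5 and 575 in MRV, high in 1 array, and its other probe sets differed by -0.134 and 0.249. Matrix proteases and their inhibitors had 2 of 15 below the range (13.3%), SERPINB2 and TIMP2, and a median of -0.069. TIMP2 read 1070.5 and 1100.0 in MRV against 1108 to 1331, TIMP3 195.5 and 250.2 in MRV against 158 to 213, and CTSB, cathepsin B, 3107 and 3391 in MRV against 3251 to 4253.

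Respiratory chain and ATP synthase genes showed small, one-sided differences. Of 55 tested oxidative phosphorylation genes 46 read lower in MRV, and 18 lay below the range (32.7%) and 0 above it, at a median of -0.07. This separation depended on the scaling of the arrays: the same count was 14 after median centring and 6 after quantile normalization, when 11.3% of all genes were below the range, while the median stayed negative at -0.063 and -0.042. The widest difference was that of NDUFA7, a complex I subunit, which read 2053 and 2384 (NC), 2156 and 2664 (MR) and 1671 and 1778 (MRV) (log2 difference -0.41, SE 0.12, limma adjusted p = 0.603). UQCR10 of complex III read 6845.5 and 7390.3 (NC), 7535 and 7863 (MR) and 6175 and 6527 (MRV). COX7A2 of complex IV read 3606 and 4137 in MRV against 4267 to 4773 and NDUFA2 of complex I 2164 and 2588 in MRV against 2689.6 to 2872.

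The other separated subunits spanned complexes I, IV and V. NDUFB5 and NDUFS3 read 3725 and 3891 in MRV against 4022 to 4611 and 2508 and 2613 in MRV against 2773 to 2993, and the ATP synthase genes ATP5O and ATP5L 8450.4 and 8465 in MRV against 8805 to 9159.7 and 5772 and 5783 in MRV against 5967 to 6550.1. For COX7C the separation was tiny, 8345 and 8361 in MRV against 8446.5 to 8863, a log2 difference of -0.048. With 1 array left out, between 18 and 31 genes lay below the range, the highest count being that without MRV2, when 26.4% of all genes did.

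**Figure D4:**
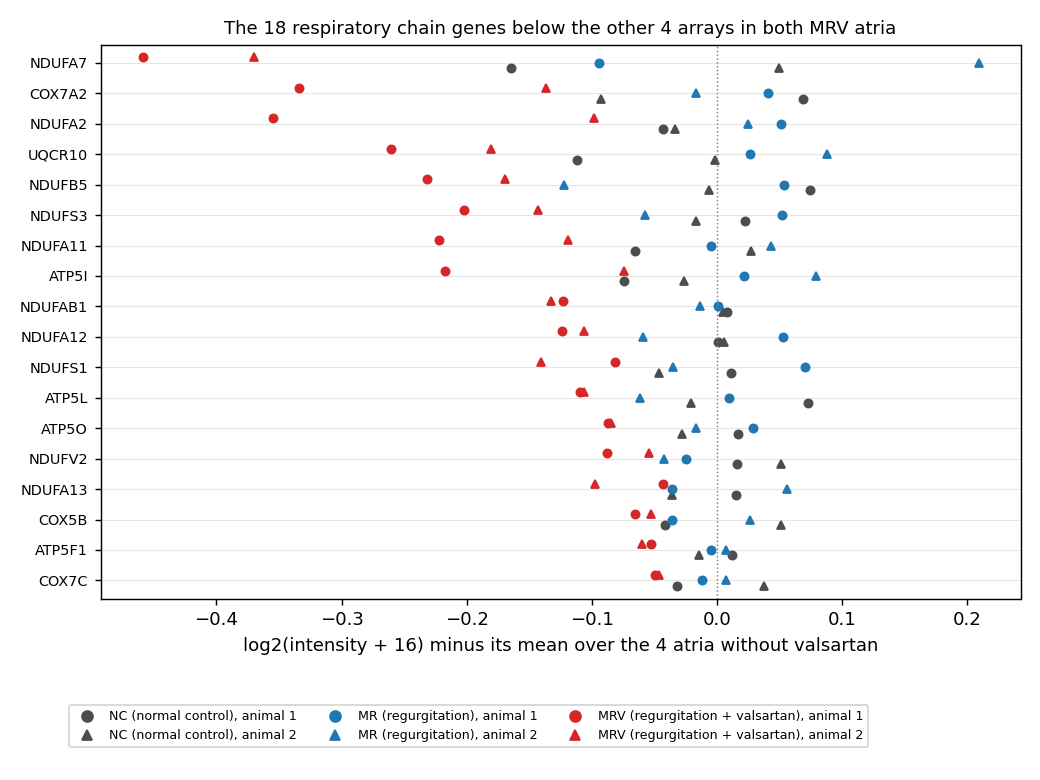
Log2(intensity + 16) of the 18 oxidative phosphorylation genes for which both MRV arrays were below the other 4, minus the mean of those 4, per atrium. NDUFA7 shows the widest gap, with MRV at 1671 and 1778 against 2053 to 2664, and from NDUFAB1 downward the gaps are narrow.

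Glycolysis, glycogen and citric acid cycle genes followed a like pattern with 37 of 44 lower, 8 below the range (18.2%), 0 above and a median of -0.097. After quantile normalization or median centring 4 lay below (11.3% and 12.6% of all genes did) and 1 above, so that the list held no larger share below the range than all genes in those settings. PFKM, the muscle phosphofructokinase that commits glucose to glycolysis, read 3508.5 and 4339.9 (NC), 5271 and 4164 (MR) and 2414 and 3464 (MRV). IDH3A, a subunit of isocitrate dehydrogenase, read 2802 and 2719 (NC), 3193.5 and 2651.5 (MR) and 2036 and 2163 (MRV), and its other probe set differed by -0.504. MRV2 for PFKM came just under NC1, whereas both MRV arrays of IDH3A were well clear. CKMT2, the mitochondrial creatine kinase of muscle, read 2399 and 2588 in MRV against 3015.5 to 4655.

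Fatty acid uptake and oxidation genes had 6 of 29 below the range (20.7%), 0 above and a median of -0.042, with 3 of 29 below after quantile normalization, near the 11.3% of all genes. FABP3, the fatty acid carrier of heart muscle, read 5833 and 6457 (NC), 6156.5 and 5008 (MR) and 3913 and 4915 (MRV). ETFDH, which passes electrons from fatty acid oxidation to the chain, read 1548 and 1541 in MRV against 1621 to 1916.5. PDK4, the kinase that turns off pyruvate oxidation, read 2003 and 5943 (NC), 1311 and 1501 (MR) and 7035.5 and 4614.5 (MRV). It was high in both MRV arrays and in NC2 and low in NC1 and MR, with log2 differences of 0.72 from NC and 2.01 from MR. Its other probe set differed by 1.59. FABP4, a fatty acid carrier of adipocytes and endothelium, read 1671 and 791 in MRV against 1529 to 2911.

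Antioxidant genes went both ways, with 7 of 35 below the range (20%) and 4 above (11.4%), and a median of -0.041 that was 0.001 after quantile normalization. GPX3, an extracellular glutathione peroxidase, read 4758.5 and 5096 (MRV), 4135 and 3265 (NC) and 3712 and 3075 (MR), a log2 difference of 0.48. SELENOW, TXNRD1 and MSRB1, further selenoproteins, were in the opposite group. TXNRD1, thioredoxin reductase, read 624 and 742 in MRV against 757 to 998, but its other probe sets differed by -0.275 and 0.189. MSRB1, a methionine sulfoxide reductase, read 1245 and 1312 (NC), 848 and 890.1 (MR) and 735 and 651 (MRV), so MRV lay under MR and further under NC.

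Chaperone and unfolded protein response genes had 8 of 38 below the range (21.1%) and 2 above (5.26%), at a median of -0.039. ATF4, the transcription factor of the integrated stress response, read 1912.5 and 2295 (NC), 2561 and 2305 (MR) and 1776 and 1578 (MRV). The small heat shock genes HSPB3 and HSPB6 read 1209 and 1265.5 in MRV against 1424 to 1824 and 790.2 and 724.5 in MRV against 945 to 1379, though another HSPB6 probe set differed by -0.001. HYOU1, which helps fold proteins of the endoplasmic reticulum, read 261 and 245 in MRV against 287 to 293. The proteasome list had 5 of 36 below the range (13.9%), 1 above (2.78%) and a median of -0.04. Its member with the smallest p was PSME4, a proteasome activator, at 672 and 790.4 (NC), 568 and 660.2 (MR) and 499 and 421.5 (MRV), while PSMC5, an ATPase of the regulatory particle, read 2385 and 2167 in MRV against 1853 to 2076, PSMA4 1408 and 1467 in MRV against 1527 to 1634 and PSME3 338 and 324 in MRV against 346.5 to 385.

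Autophagy and lysosome genes were lower for 24 of 34, with 4 below the range (11.8%) and 1 above (2.94%) and a median of -0.137. MAP1LC3A, which coats autophagosomes, read 1659.5 and 1508 (NC), 2013 and 1655 (MR) and 1130.2 and 1271 (MRV). LAMP2, a lysosomal membrane protein, read 1951 and 2206 (MRV), 1877 and 1781 (NC) and 1444 and 1604 (MR), in the same direction as SCARB2. WIPI1, which marks forming autophagosomes, read 325.5 and 316 (NC), 453 and 493 (MR) and 309.7 and 303 (MRV), MRV being just below NC with MR clearly higher, and another probe set differed by -0.021. ATG12 read 119 and 149 in MRV against 150.2 to 168. Of the cytosolic ribosomal protein genes 40 of 56 read higher, 3 lay above the range (5.36%) and 1 below, and the median was 0.029, turning to -0.005 without NC2 and -0.015 without MRV1. RPL6 read 8480.3 and 8263 in MRV against 7600.4 to 8121, with another probe set at -0.099, while RPS27A, RPL13A and RPL14 overlapped the other atria at 10403 and 10318, 7857.5 and 7422.5 and 7153 and 6229.9 in MRV.

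Calcium handling genes had 5 of 24 below the range (20.8%), 0 above and a median of 0.007. FKBP1A, an immunophilin that binds calcium release channels, read 748 and 893 in MRV against 970.3 to 1115. PPP1R1A, an inhibitor of protein phosphatase 1, read 294 and 326 (NC), 261 and 236 (MR) and 222 and 189.6 (MRV). RYR2, the calcium release channel itself, read 3124 and 2900.1 in MRV against 3343 to 4786 on its brightest probe set, and 2 other probe sets differed the opposite way, by 0.096 and 0.145. SLN, sarcolipin, the atrial inhibitor of the calcium pump, read 8949 and 8529.8 in MRV against 5369 to 10033. Of 12 ion channel and gap junction genes 1 was below the range and 1 above (8.33% each), at a median of 0.015. GJA5, the atrial connexin 40, read 438 and 345 (NC), 320.5 and 584 (MR) and 268 and 291 (MRV), and GJA1, connexin 43, 6088 and 5378 (NC), 4826.5 and 5434 (MR) and 6939.5 and 5738 (MRV). The 2 connexins thus differed in opposite directions, -0.53 and 0.22, and GJA1 overlapped NC1. KCNQ1, a repolarising potassium channel, read 124 and 125 in MRV against 83.9 to 120.2, and KCNJ8 502 and 263 in MRV against 356 to 573.

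Cytokine, chemokine and interferon response genes had 3 of 33 above the range (9.09%), 0 below and a median of 0.011. ICAM1, an adhesion molecule for leukocytes, read 425 and 384 (MRV), 318 and 327 (NC) and 281 and 339 (MR). Together with CCL2 and CCL5 (71.4 and 71.8 in MRV against 49.3 to 67.4) it made up the higher ones, and CCL19 read 56.9 and 46.2 in MRV against 55.6 to 87.5. Cell cycle genes had 3 of 12 above the range (25%) and 1 below (8.33%). CDKN1B, the cyclin-dependent kinase inhibitor p27, read 829 and 764 (MRV), 619 and 529.8 (NC) and 649.7 and 596 (MR). CCNI read 6703 and 6796 in MRV against 5441 to 6355, CDK7 84.5 and 92.4 in MRV against 75.5 to 83.4, and CCNG1, a p53 target, 6580.5 and 6382 in MRV against 6659 to 7579.

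The clock list had 6 tested genes with 1 below and 1 above the range (16.7% each). BHLHE40, a clock repressor, read 75.3 and 80.5 in MRV against 84.8 to 153, NFIL3, another repressor linked to the clock, 319.5 and 247 in MRV against 135 to 242, and ARNTL, the core activator BMAL1, 101 and 150.1 (NC), 76.7 and 88.7 (MR) and 121 and 202.5 (MRV). CRY2 read 495 and 698 in MRV against 654 to 846. ACTG1, a cytoskeletal actin, and RHOB were among the brightest genes separated by 0.5 or more on the log2 scale, at 9739 and 12718 in MRV against 14745 to 17048.5 and 2079 and 1971 in MRV against 2252 to 4954. Of the other ACTG1 probe sets, 1 differed by -0.247 and the remaining ones were above 0, up to 0.064.

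Genes of other cell types in the atrial wall were read as whole lists. In bulk tissue fewer cells of a type and less RNA per cell cannot be told apart. The list of Schwann cell and neuron markers summed to 1492 and 2216 in MRV and to 3248 to 3633 in the other atria, with 6 of 8 tested members lower, 2 below the range and a median of -0.564 (-0.363 without NC1). UCHL1 was the largest part of that sum in every atrium, at 633 and 1186 in MRV against 1122 to 2384, with MRV2 inside the range. The hypertrophy and stretch list holds UCHL1 too, so the sum is not one of nerve genes alone. SNAP25, a vesicle fusion protein of nerve endings, read 428 and 39.3 (NC), 54.8 and 113 (MR) and 16.8 and 17.8 (MRV), and NEFL, a neurofilament, 293 and 33.8 (NC), 51.6 and 94.5 (MR) and 23.1 and 27.0 (MRV). NC1 was far above the rest for both, and without it their log2 differences were -1.26 and -0.811 in place of -1.88 and -1.34. The glial markers SOX10 and MBP were not lower, at 60.7 and 78.4 in MRV against 55.3 to 74.6 and 152 and 134 in MRV against 97.9 to 156, and S100B read 391 and 519 in MRV against 482 to 612.5. CHAT, of cholinergic neurons, was at 28.6 to 35.3 on all arrays, below the filter.

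Further genes of nerve cells, chosen after their low values were seen, are given as examples, while NRSN1, also of neurons, was higher in MRV as given above. STMN2, a microtubule regulator of growing axons, read 331 and 20.9 (NC), 49.2 and 73.1 (MR) and 9.3 and 10 (MRV), near the bottom of the array's scale in both drug-treated atria. SYT1, the calcium sensor of vesicle release, read 206 and 48.1 (NC), 61.7 and 95.0 (MR) and 24.9 and 34.5 (MRV). GAP43, an axonal growth protein, read 43.3 and 36.4 in MRV against 48.0 to 205, and MAP2, of dendrites, 82.0 and 79.8 in MRV against 88.4 to 242. The order was MRV, then NC2, then MR, then NC1 for all 4 genes. Without NC1 the difference of STMN2 was -1.22.

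**Figure D5:**
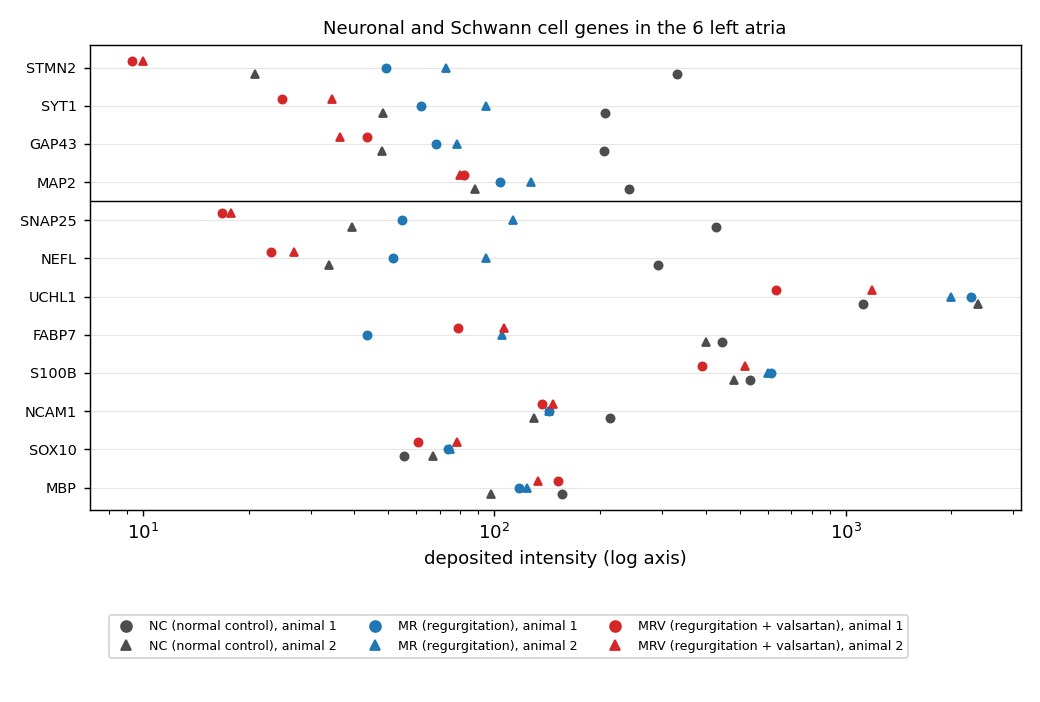
Deposited intensity (log axis) of 4 neuronal genes chosen after their values were seen (above the line) and the 8 tested Schwann cell and neuron markers in each atrium. The red MRV points are the lowest for STMN2, SYT1, GAP43, MAP2, SNAP25 and NEFL, with NC1 far to the right at 331 for STMN2 and 428 for SNAP25, and they overlap the others for MBP and SOX10.

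The remaining cell type lists overlapped or moved less. Adipocyte markers summed to 4966 and 5011 in MRV and 5811 to 8004 elsewhere, with 8 of 11 lower and a median of -0.339 (-0.051 without NC1), 1 gene, SCD, below the range, and ADIPOQ at 20.3 to 35.1 on all arrays. FABP4, which counts toward that sum, read 1671 and 791 in MRV against 1529 to 2911. By array, the median deviation of these markers from the mean of the 4 atria without valsartan was -0.072 and -0.2 in MRV. It was 0.484 and -0.066 in NC and -0.176 and -0.369 in MR, so MR2 was lowest. Endocardial markers summed to 1813 and 2107 against 2911 to 3528, and 4 of 4 read lower. Only 1 of these 4, POSTN, lay below the range (log2 difference -1.19). It counts toward that sum with 461.8 and 1300.5 in MRV against 1409.6 to 2258.5. The endocardial median deviation was -0.051 for MRV1 and -0.61 for MRV2. NC2, at -0.554, lay below MRV1, while NC1 (0.163), MR1 (0.002) and MR2 (0.211) lay above it. The list as a whole was thus not separated. What part endocardial markers play in the gene results above was not tested. Smooth muscle and pericyte markers summed to 16121 and 17007 against 17156 to 19172, with CNN1, TAGLN and DES below the range and SMTN above it among 8, while ACTA2 read 2058 and 2311 in MRV against 2018.5 to 3015.5 and overlapped. Of the 8 smooth muscle and pericyte markers 6 read lower in MRV, at a median of -0.128, and RGS5, a pericyte gene, differed by 0.013. Whether the number of smooth muscle cells plays a part in the low CNN1 and TAGLN was not tested.

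Fibroblast markers summed to 9572 and 11896 against 9361 to 14439, and endothelial markers to 3821 and 4386 against 4140 to 4552, with 0 of 9 and 0 of 10 outside the range. Macrophage and monocyte markers summed to 761 and 1264 against 778 to 1329. Ventricular or slow muscle markers summed to 31268 and 31774 against 31167 to 45460, high in MR. Lymphatic markers summed to 353 and 373 against 348 to 485, and erythroid and platelet markers to 672 and 682 against 667 to 735. Of the fast skeletal, T and NK cell, and B and plasma cell lists 1 gene each was tested, and 0 of the mast cell, neutrophil, and mesothelium and epicardium lists.

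The comparison with NC alone and that with MR alone share the MRV arrays, and each has 2 arrays against 2. In a fit with 3 group means, 0 of 14400 probe sets (0%) passed for MRV minus NC, with a smallest limma adjusted p of 0.0649 and 762 probe sets at an unadjusted p under 0.05 (234 higher, 528 lower). For MRV minus MR 0 passed (0%), with a smallest adjusted p of 0.317 and 1048 at an unadjusted p under 0.05 (322 higher, 726 lower). Several separated genes had nearly the same difference from both groups, as GLRX at -0.74 from NC and -0.74 from MR, CNN1 at -0.86 and -0.73, and STBD1 at -0.82 and -0.88. Others were unequal, as DDAH1 and RCAN1 above, ATF3 at -3.06 from NC and -1.97 from MR, and MSRB1 at -0.87 and -0.32. Whether these pairs of differences are unequal was not tested.

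Among probe sets without a gene symbol, those with the smallest p-values were similar in size to the named ones. The lowest p among the lower ones belonged to a probe set that read 4118 and 3537 (NC), 3533 and 3876.5 (MR) and 2091 and 1887 (MRV), with a difference of -0.91 ± 0.10 on the log2 scale (moderated SE; limma adjusted p = 0.346). The lowest p among the higher ones belonged to a dim probe set that read 134 and 108 (MRV), 65.1 and 54.0 (NC) and 49.7 and 62.0 (MR), higher in the drug-treated atria by 0.89. The genes behind these probe sets are not named in the tables used here.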

How the data were processed

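RNA of 6 left atria was measured with 1 array per animal (n = 2 per group, separate pigs per the labels' design text). The deposited values are intensities on a linear scale, normalized by the authors. MAS5 and RMA both appear in the submitters' processing notes, and the one behind these values is not stated there. Values were taken as log2(intensity + 16), so differences of dim probe sets are understated. Probe sets with a mean under the 40th percentile (61.4) were not tested, which left 14400. Symbols came from the platform annotation: 10069 probe sets had 1, 198 had several and 13732 had none, and 9961 were matched by Entrez ID with 0 updated. Limma 3.58.1 in R 4.3.3 fitted MRV against NC and MR pooled (4 residual and 2.71 prior degrees of freedom), with Benjamini-Hochberg adjustment and a threshold of 0.05. NC and MR differences count as spread in this fit. A gene was represented by its brightest probe set. "Outside the range" means that both MRV arrays were above, or both below, all 4 others, a count without a test.

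The named genes were the 16 higher and 16 lower separated genes with the smallest p and a log2 difference of at least 0.5, up to 4 members of each list by p, genes given wherever measured, and the 6 brightest separated genes past that same limit. COL3A1 was below the filter, and KCNA5, MYL7, CCN2, CYBB and NOX4 had no probe set with that single symbol. Some items are not reported here. The members and lists were chosen with earlier results of these data known. Some genes beyond the rule are said to be chosen after their values were seen. Other list members named in the text, among them IER5, FOS, EGR1, TNNT1, F2R and NDUFB5, also fall outside the rule. The fit was checked on simulated data with known changes. Alternatives covered the added constant, the filter, scaling, grouping, replicate block, variance prior, the actin and 28S controls as covariates, and each array left out. Counts of separated list members under other scalings and without an array were alternatives chosen after seeing the data. Precision is limited by the number of arrays.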

Additional observations from a re-analysis of the deposited data

Results flagged for a closer look

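For 6 of the 122 named genes, 1 of the 4 atria without valsartan stood apart from the other 3, by a gap that makes up most of their range. Chance alone marks about 1 in 20 such groups. PROCR read 2398 in NC1 and 1100.1 to 1184 in the other 3 (gap 0.935 of the range). STC1 read 373 in MR2 and 229.8 to 243 elsewhere (0.906), and both MRV values, 126 and 116, were below these. RPS27A read 10443 in MR2 and 8919 to 9082 in the rest (0.893), so that MR2 alone kept the MRV values of 10403 and 10318 inside the range. SELENOW read 2149.7 in MR1 and 1684 to 1744 elsewhere (0.871). PDK4 read 5943 in NC2 and 1311 to 2003 elsewhere (0.851), between the MRV values of 7035.5 and 4614.5. IER3 read 205.0 in NC2 and 279 to 293 elsewhere (0.842), still above both MRV values.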

How the results depend on the processing

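With 2 drug-treated animals, the limits lie in the number of arrays, and dim probe sets such as STMN2 and SPP1 carry the least signal over background. Of 14400 probe sets 0 passed with limma under most alternatives. The exceptions were the fit with the 28S control as a covariate and the fit without MRV replicate 2. In the first, 1 probe set without a gene symbol passed (limma adjusted p = 0.019). It read 71.3 in MRV1, below the atria without valsartan (97.3 to 523.3), and 135.6 in MRV2, inside their range. In the second, a probe set also without a symbol differed by -3.04 on the log2 scale, with MRV1 at 103 and MRV2 at 792. In the second fit the lone MRV array is assumed to vary like the others. With 1 array left out the count passing was 0 to 1, the 2-fold separated count 69 to 157 and the share outside the range 23.4% to 42.8%, and with 64 in place of 16 added before logs the 2-fold count was 37. In the labels the groups share replicate numbers, though each atrium came from a separate pig. Differences between replicates 1 and 2 correlated at 0.34 for NC with MR, 0.2 for NC with MRV and 0.02 for MR with MRV. An effect shared by arrays of the same replicate number was not tested on its own. The fit with the replicate block called 0 probe sets (smallest limma adjusted p = 0.249).

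All 32 leading genes kept their direction in every setting run, with 0 past the threshold, and 109 of all 122 named genes kept theirs. The 32 leading genes were chosen as separated, so leaving out an array or changing the constant or filter could not reverse them. The medians of 10 of the 22 lists changed sign in some setting. The genes that changed sign were ones with small differences or wide spread, and the cause was not tested. Adding the actin ratio as covariate gave log2 differences of 0.057 for CTSB, 0.025 for NPPB, 1.53 for MYL2, -0.404 for SLN and 0.195 for EDN1. With the 28S covariate they were 0.03 for RGS4, -0.425 for CRIM1, 0.04 for KCNJ8 and -0.086 for SLN. Without NC1 CRIM1 was at -0.09. Without NC2 ACE was at 0.02, RGS2 at 0.049 and RGS5 at -0.035. Without MR1 ACE was at 0.011, RGS5 at -0.016 and SLN at -0.121. Without MRV1 ACE was at 0.007 and RGS2 at 0.005. Without MRV2 JAK2 was at -0.051, CRIM1 at -0.108, KCNJ8 at 0.12, RGS5 at -0.204 and COL1A2 at -0.09. The full ranges over single arrays left out reach 0.579 for JAK2, 0.488 for CRIM1, -0.771 for KCNJ8, -0.053 for ACE, -0.545 for RGS2, 0.23 for RGS5, 0.21 for COL1A2 and 0.179 for SLN.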

Other observations

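Some separated genes outside the rule for named genes, chosen here after their values were seen, belong to the contractile and signalling machinery of muscle. TPM2, a tropomyosin of slow and smooth muscle, read 2579.5 and 1909 (NC), 2916.5 and 2198 (MR) and 1412 and 1272 (MRV), a log2 difference of -0.815. ITGB1BP2, melusin, which binds integrins and senses load in heart muscle, read 632 and 465 in MRV against 716 to 1132 on the other arrays. HOMER2, a scaffold of calcium signalling, read 1019 and 1331.5 (NC), 1571 and 1964 (MR) and 618 and 1005 (MRV). SMYD2, a methyltransferase of muscle, read 252 and 567 in MRV against 584 to 775, MRV1 being far below MRV2. All of these genes were lower in both drug-treated atria, and 0 of them passed the limma threshold.

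Others are linked to stress signals or to secreted and lipid-binding proteins. GADD45G, a stress sensor gene, read 1861 and 789 (NC), 1171 and 1292 (MR) and 518 and 361 (MRV) (log2 difference -1.46, SE 0.32, limma adjusted p = 0.539). APOD, an apolipoprotein that nerve sheaths also make, read 1291 and 704 (NC), 1695 and 566 (MR) and 421.5 and 396 (MRV). The complement genes C3 and C4A read 505 and 577 in MRV against 588 to 1325 and 51.0 and 59.8 in MRV against 79.7 to 194, and FCN2, a ficolin that activates complement, 85.5 and 71.6 in MRV against 110.4 to 315. Among separated genes with higher values, CHD7, a chromatin remodeller, read 695 and 773 (MRV), 343 and 661 (NC) and 445 and 632 (MR), and NUCKS1 2984 and 2998 (MRV), 1435 and 2769.9 (NC) and 1851 and 2397 (MR). For CHD7 and NUCKS1 the gap to NC2 was small.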
